A study of Mus musculus with 2 samples.

Results

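The complement genes *C1ra*, *C1s1*, *C2*, *C4b*, *C3*, *Cfb*, *Hc*, *C7* and *Serping1* were examined in mammary fibroblasts, 9 of the 33696 genes in the deposited list, found by symbol in both libraries. Fibroblasts were taken as cells with at least 500 detected genes, at most 10% mitochondrial UMIs (unique molecular identifiers, 1 per captured transcript) and at least 1 UMI of *Pdgfra*, a receptor gene shared by fibroblasts. This left 39877 of 44871 barcodes, 18878 at puberty and 20999 in the adult. The stromal cells came from wild-type C57BL/6 female mice that were 4 weeks old (puberty) or 9 weeks old and virgin (adult), with no treatment named. The study's methods, which differ from the labels in kit and pubertal age, give sorting as lineage-negative and CD24-negative, with 2 females per condition. Sequencing used a 10x Genomics droplet kit that reads transcript 3′ ends. Each stage had 1 library, marked as replicate 2, so no test across animals was possible, and every difference is between these 2 libraries.

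Complement is a protein cascade that marks and punctures targets. C1r and C1s, the proteases of the C1 complex, cut C4 and C2 to form the classical C3 convertase, while factor B takes the place of C2 in the alternative pathway. C3 is the protein on which the pathways meet, C5 (encoded by *Hc*) and *C7* belong to the terminal pathway that builds the membrane attack complex, and *Serping1* encodes the C1 inhibitor. Most circulating complement is made in the liver, but fibroblasts are a known local source.

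The label held against the markers. All 5 collagen and proteoglycan markers (*Dcn*, *Lum*, *Col1a1*, *Col1a2*, *Col3a1*) were counted, with a sum of 47955 UMIs per 1000000 (CPM) at puberty and 35097 CPM in the adult. The 8 immune markers summed to 1.32 and 1.22 CPM, and the 6 epithelial markers to 3.48 and 1.18 CPM. The 7 endothelial markers came to 44.6 and 21.9 CPM and the 8 mural markers to 157 and 107 CPM. Median depth per fibroblast was 12187 UMIs at puberty and 11265 in the adult, and 145 barcodes occurred in both libraries. Summed CPM of 9 interferon-induced genes was 2048 and 1256, and that of 9 dissociation stress genes 19773 and 24643. Their part in the complement values was not tested.

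The genes lie on 4 chromosomes of the mouse genome (GRCm38 with GENCODE M21 annotation, matched by Ensembl identifier). *C2*, *Cfb* and *C4b* are neighbours on chromosome 17, with *C4b* at 34728380-34743882, *Cfb* at 34856374-34862518 and *C2* at 34862604-34898265, each on the minus strand. *C3* lies on the minus strand of the same chromosome at 57203970-57228136. *C1ra* (chromosome 6, 124512405-124523443, plus strand) and *C1s1* (124530345-124542359, minus strand) are neighbours as well. *Hc* (34983331-35061438) and *Serping1* (84765387-84775444) are on the minus strand of chromosome 2, and *C7* (4988762-5063740) on that of chromosome 15. *C2* and *Cfb* both overlap the annotated gene *Gm20547* on their own strand, and *C1s1*, *C2* and *Hc* each overlap another listed gene on the other strand. The near-identical paralogs *C1rb*, *C1s2* and *C4a* were counted at under 1 CPM in both libraries. Reads that matched both copies equally cannot be seen in the table, so *C1ra*, *C1s1* and *C4b* carry that uncertainty.

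The sequences upstream of *C3* and *Hc* are shown because the results turn on how these genes were distributed over cells. RefSeq windows (GRCm38.p6) were found for 5 of the 9 genes. Each line gives the 250 bases before the annotated start, 5′ to 3′ on the gene's strand, and capitals mark a motif match.
C3: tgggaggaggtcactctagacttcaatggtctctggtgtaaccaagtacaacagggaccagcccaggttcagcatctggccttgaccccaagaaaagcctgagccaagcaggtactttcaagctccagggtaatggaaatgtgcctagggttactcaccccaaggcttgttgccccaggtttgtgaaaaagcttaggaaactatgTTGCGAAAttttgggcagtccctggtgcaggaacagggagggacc
Hc: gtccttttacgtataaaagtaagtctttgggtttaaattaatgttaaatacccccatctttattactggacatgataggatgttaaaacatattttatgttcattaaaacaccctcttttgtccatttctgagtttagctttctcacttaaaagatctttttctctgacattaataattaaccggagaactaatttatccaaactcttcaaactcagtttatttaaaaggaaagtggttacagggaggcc
The *C3* sequence is chr17:57228137-57228386 and that of *Hc* chr2:35061413-35061662, each on the minus strand. Windows of 250 bases before to 50 after the start were searched on both strands for motifs of factors known from immune and retinoid signalling. The motifs given here are an interferon element core (GAAA and GAAA with 2 free bases between them), C/EBP (TTGCNNAA), NF-kB (GGG, 2 free bases and TTTCC) and a retinoic acid receptor repeat (AGGTCA and AGGTCA with 5 free bases between them). The *C3* window held 1 C/EBP match, as did 10.8% of 32851 windows, and the *Hc* window held none of these motifs. The *C1ra* window held 1 C/EBP match, and of 2 *C1s1* windows 1 held a C/EBP match. Of these, the interferon core, NF-kB and retinoic acid letters, found in 3.44%, 1.63% and 0.00913% of windows, were in no member window. *C2*, *C4b*, *Cfb* and *Serping1* had no window and were not searched.

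Over all *Pdgfra*+ cells, *Serping1* and *C3* were the most abundant complement transcripts at both stages, and *Hc* had the largest difference between stages. A 3′ UMI is counted once per transcript, so CPM needs no correction for gene length. *Serping1* was at 1697 CPM at puberty and 1548 in the adult, and *C3* at 1440 and 1548, so the 2 adult levels did not differ beyond their counting intervals. *C1s1* followed with 391 and 546 CPM, then *C1ra* with 278 and 338, and *C4b* with 235 and 191. *Cfb* (76.1 and 59.6 CPM) and *C2* (75.1 and 78.6) were close to each other at puberty, where their counting intervals overlapped. *C7* (19.2 and 27.7) and *Hc* (18.5) were the lowest at puberty, with overlapping intervals, but *Hc* stood at 132 CPM in the adult.

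**Figure D1:**
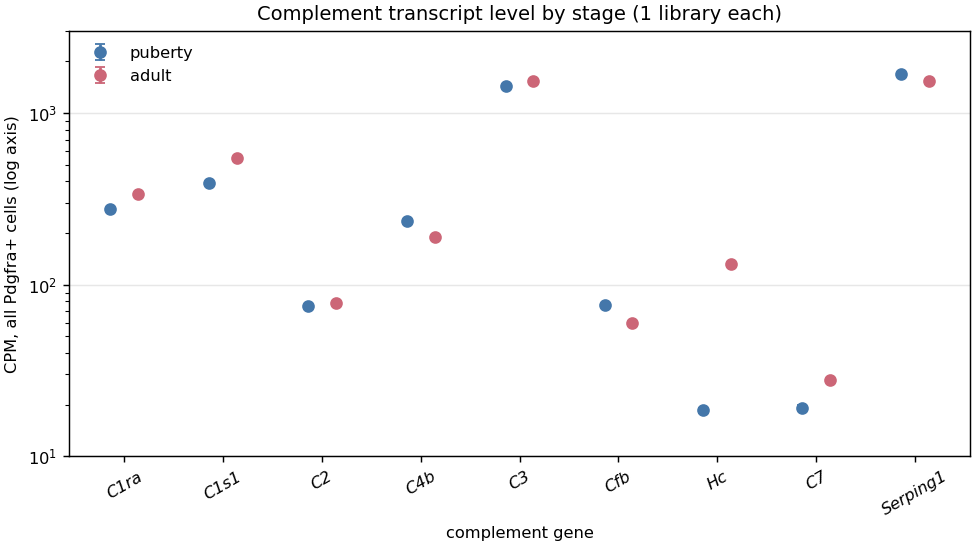
Level of the 9 complement genes over all Pdgfra+ cells in CPM (log axis), with 1 point per library and exact 95% Poisson intervals that are mostly smaller than the points. Adult and pubertal points lie close together for 8 genes, whereas Hc goes from 18.5 to 132 CPM.

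With 4385 UMIs at puberty and 32690 in the adult, *Hc* was 7.13 times as high in the adult as in the pubertal library (6.91 to 7.36, conditional binomial 95% interval, which like all intervals here covers counting error alone). It was the 1 member of 9 that was at least 1.5-fold higher. Of 8645 genes with at least 10 CPM in a library, 12.0% were that much higher. No member was at least 1.5-fold lower, against 5.09% of genes. The median log2 difference of the members was 0.11, beside 0.13 over all these genes. Nearest to the threshold were *C7*, with an adult over pubertal ratio of 1.44 (1.38 to 1.49), and *C1s1*, with 1.40 (1.38 to 1.41). *C1ra* came to 1.22, *Serping1* to 0.912, *C4b* to 0.812 and *Cfb* to 0.783. The ratios of *C3* (1.08) and *C2* (1.05) are given without a direction, because both turned below 1 under TMM (trimmed mean of M-values) scaling, which removes the shift shared by most genes, with log2 values of -0.04 and -0.08.

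The shares of positive cells were lower in the adult for *C3*, *C4b* and *Cfb* and higher for *Hc*. To remove depth, each cell was thinned at random to 3000 UMIs, which left out 336 pubertal and 426 adult cells that were shallower. *C3* was then detected in 80.5% of fibroblasts at puberty and 56.9% in the adult (88.8% and 65.0% without thinning). *C4b* went from 35.1% to 25.1% (61.5% and 43.5% unthinned) and *Cfb* from 17.7% to 12.2% (44.4% and 28.6%). The *Hc* share was 3.10% at puberty and 23.5% in the adult (5.48% and 36.9%), a ratio of 7.58. The remaining genes differed less, with *C1ra* at 53.3% and 59.4% (89.4% and 89.5% unthinned), *C1s1* at 64.4% and 75.2% (94.0% and 94.8%), and *C2* at 16.4% and 17.0% (37.3% and 40.0%). *C7* was detected in 3.32% and 3.84% of cells (7.86% and 7.19%) and *Serping1* in 95.6% and 91.1% (98.9% and 97.1%). At a threshold of 1.5-fold, *Hc* alone among the 9 genes was more often detected in the adult, against 14.0% of 11207 genes detected in at least 1% of cells, and no member was less often detected, against 5.34%.

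Cells without a *Pdgfra* UMI that carried at least 3 of the 8 mural markers, called mural-like here, gave the background. These were 722 pubertal and 408 adult cells, with median depths of 6368 and 6203.5 UMIs, lower than in fibroblasts. *C3* was detected in 4.5% of them at puberty and 3.57% in the adult library after thinning, at 48.0 and 47.4 CPM. *Hc* was detected in 0 of 689 thinned mural-like cells at puberty, which allows a share of up to 0.534%, and in 0.298% in the adult. *C7* (0.145% and 0.298%), *Cfb* (0.871% and 0.298%), *C4b* (1.60% and 1.49%) and *C2* (2.76% and 2.98%) were also low there. The fibroblast shares of these genes lay above that mural-like background. Cells without *Pdgfra* that carried at least 3 glial or endothelial markers were few. In the adult library *C4b* was detected in 22.2% of 27 thinned glial-like cells (8.62% to 42.3%). *Cfb* was detected in 14.3% of 21 endothelial-like cells (3.05% to 36.3%), and both intervals hold the fibroblast share. The adult fibroblast shares of *C3* and *Hc* lay above the intervals of both cell types. *C1s1* (53.6% and 60.1%) and *Serping1* (78.4% and 84.8%) were common in mural-like cells, and *C1ra* was intermediate (12.5% and 17.3%), so for these the mural-like share is not a measure of background.

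*C3* had a nearly level sum over both libraries but was spread over cells in a different way. Per 3000 UMIs the median fibroblast held 3 of *C3* at puberty and 1 in the adult library, while the 90th percentile went the other way, with 9 and 12. Cells with no *C3* UMI made up 19.5% at puberty and 43.1% in the adult, and cells with 16 or more 2.23% and 5.24%. *C3*-positive cells had a mean of 5.29 UMIs in the pubertal and 7.40 in the adult library. The 10% of cells richest in *C3* held 32.4% of its thinned UMIs at puberty and 41.4% in the adult.

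**Figure D2:**
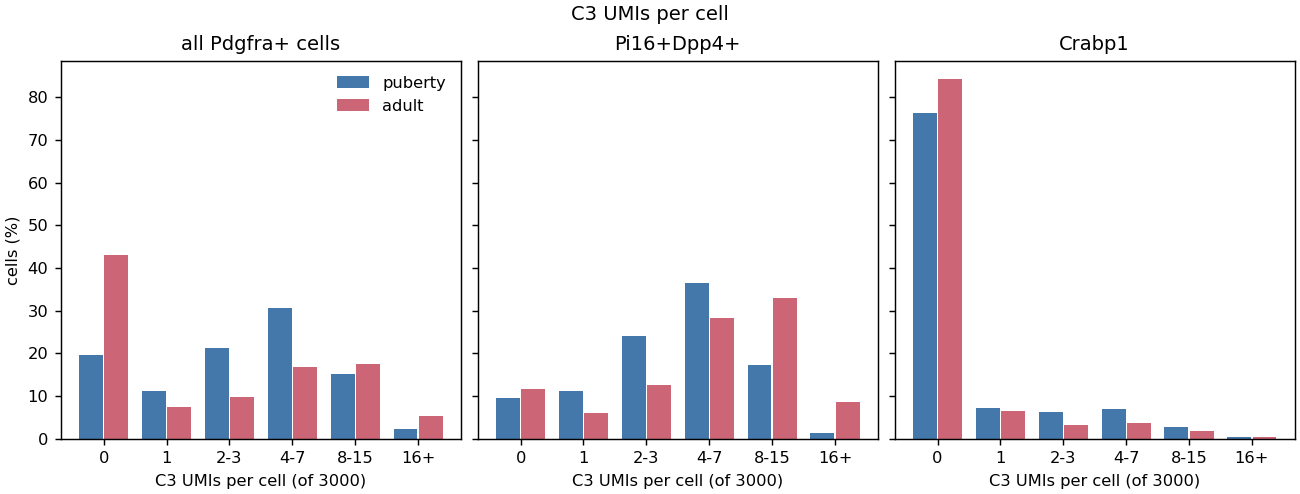
Share of cells (y axis, percent) by number of C3 UMIs per cell thinned to 3000 UMIs (x axis), for all Pdgfra+ cells, Pi16+Dpp4+ cells and Crabp1+ cells, with 1 bar per library. Among all cells the adult library has more cells at 0 (43.1% against 19.5%) and more at 16 or above (5.24% against 2.23%), and most Crabp1+ cells are at 0 in both.

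Cells were then split by the genes that mark the fibroblast states of the study. *Pi16* and *Dpp4* mark mesenchymal progenitors, *Gdf10* and *Fmo2* adipogenesis-regulatory cells, *Thbs4* and *Bmp5* lobular-like fibroblasts, *Fabp4* preadipocytes, and *Crabp1* a population with a retinoic acid binding protein. A gate asked for 1 UMI of each gene named with "and" or of either gene named with "or", and for 2 UMIs of *Fabp4*. *Pi16*+*Dpp4*+ cells were 74.1% of pubertal fibroblasts (13983 cells) and 42.2% of adult ones (8853). *Gdf10*+ or *Fmo2*+ cells were 39.5% (7462) and 47.9% (10066), *Thbs4*+ or *Bmp5*+ cells 4.91% (927) and 14.8% (3117), and cells with at least 2 *Fabp4* UMIs 9.42% (1779) and 12.2% (2553). *Crabp1*+ cells went from 1.53% (289) to 12.7% (2672). Gates that rest on 1 UMI overlap: 55.9% of pubertal and 30.4% of adult *Gdf10*+ or *Fmo2*+ cells also passed the *Pi16*+*Dpp4*+ gate, and 706 pubertal and 2507 adult cells passed none. Median depth differed between subsets, from 11860 to 13850 UMIs at puberty and from 10588 to 13524 in the adult, and was 9977 and 7490 in cells of no subset.

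*C3* was the member most tied to *Pi16*+*Dpp4*+ cells. There it was counted at 1530 CPM at puberty and 2349 CPM in the adult, against 1138 and 783 CPM in the other *Pdgfra*+ cells. The ratio of the subset to other cells was thus 1.34 in the pubertal library (1.33 to 1.36) and 3.0 in the adult one (2.98 to 3.02). *Pi16*+*Dpp4*+ cells held 81.7% of all *C3* UMIs at puberty and 74.1% in the adult, with 76.9% and 48.8% of all UMIs of any gene. Within the subset *C3* was detected in 90.4% and 88.4% of thinned cells (97.5% and 94.1% unthinned), so the share of positive cells differed by little. The mean per thinned cell was 4.6 UMIs at puberty and 7.15 in the adult. Outside the subset the adult level was 0.688 times the pubertal one (0.681 to 0.695). The adult level was thus higher inside the subset and lower outside it. When both stages were weighted to the same mix of 28 subset combinations the *C3* ratio was 1.41 in place of 1.08.

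*Cfb*, whose product pairs with that of *C3*, and *C4b*, whose product pairs with that of *C2*, were also higher inside this subset than outside it in the adult library. *Cfb* in *Pi16*+*Dpp4*+ cells was at 75.0 CPM at puberty and 80.0 in the adult, while in the other cells it was 79.9 and 40.1 CPM. The subset over other cells was 0.939 at puberty and 1.99 in the adult. *C4b* in the same subset went from 213 to 220 CPM and outside it from 307 to 162 CPM, so the order of subset and other cells turned over. Both genes thus had a level that differed little between stages inside the *Pi16*+*Dpp4*+ gate, and ratios of 0.503 (*Cfb*) and 0.529 (*C4b*) outside it. *Serping1* turned over as well, with the subset over other cells at 0.911 at puberty and 1.33 in the adult. Its adult over pubertal ratio was 1.07 inside the gate and 0.732 outside it.

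By the 1.5-fold rule in both libraries, no member was higher in *Pi16*+*Dpp4*+ cells than in the other fibroblasts, against 7.29% of 8283 genes, and 3 of 9 were lower, against 8.69%. The 3 were *Hc* (ratios of 0.0518 at puberty and 0.162 in the adult), *C2* (0.208 and 0.639) and *C7* (0.280 and 0.350). *C3* and *Cfb* passed the threshold in the adult library but not in the pubertal one.

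*C2* and *C7* had their highest levels in *Gdf10*+ or *Fmo2*+ cells. *C2*, the serine protease subunit of the classical convertase, was at 134 CPM at puberty and 110 in the adult, 4.10 and 2.36 times the level of other cells. *C7*, a subunit of the membrane attack complex, was at 36.5 and 47.7 CPM, 5.29 and 6.90 times as high. *C4b* was higher there too (309 and 230 CPM, ratios of 1.71 and 1.53). These 3 of 9 members passed the fold in both libraries, against 1.83% of 8041 genes, and none was lower, against 1.84%. When the gates were set on thinned cells, the pubertal *C4b* ratio was 1.47 and missed the threshold. The subset held 79.2% and 87.7% of all *C7* UMIs and 74.7% and 71.0% of all *C2* UMIs, with 41.8% and 50.9% of UMIs of any gene. *C7* was still detected in just 6.33% and 6.64% of its thinned cells (13.9% and 11.6% unthinned), with up to 22 UMIs per 3000 in a cell. Cells with a *C7* UMI had a *C2* UMI in 38.2% of cases at puberty and 47.9% in the adult, against 15.6% and 15.8% of cells without *C7*.

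**Figure D3:**
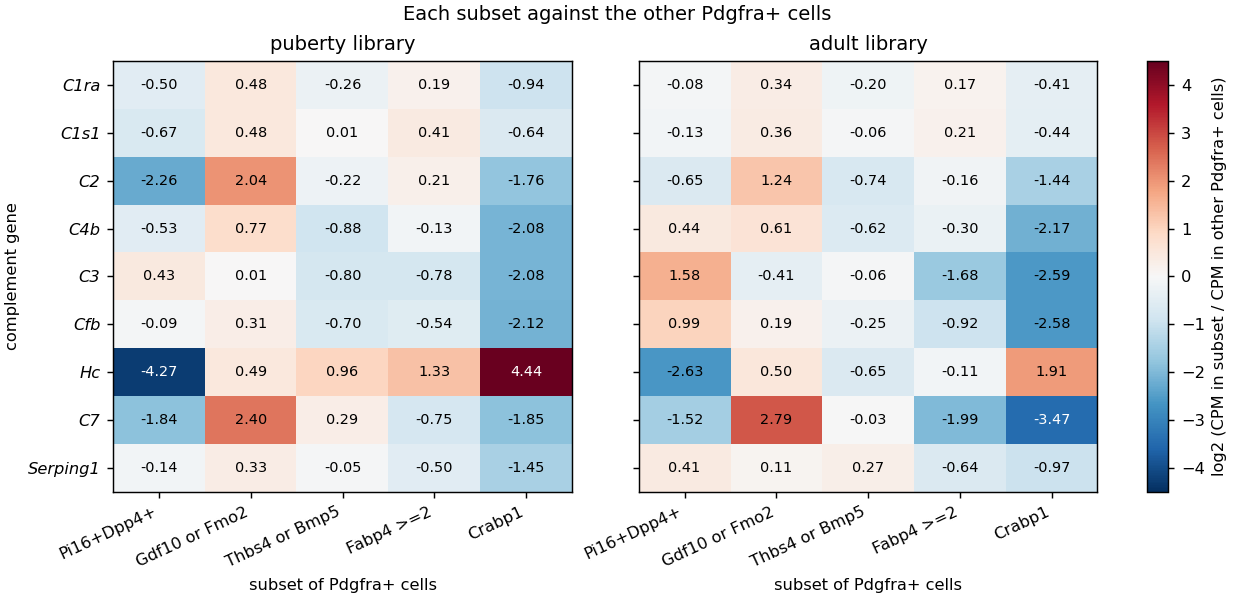
Log2 ratio of the CPM in each subset to that in the other Pdgfra+ cells, by gene (rows) and subset (columns), for the pubertal (left) and adult (right) library, with red for higher and blue for lower in the subset. C2 and C7 are red in the Gdf10 or Fmo2 column, Hc is red in the Crabp1 column (4.44 and 1.91) and blue in the Pi16+Dpp4+ column (-4.27 and -2.63).

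*Hc* had the opposite distribution to *C3* in the *Pi16*+*Dpp4*+ and *Crabp1*+ gates. In *Crabp1*+ cells it was at 293 CPM at puberty and 365 in the adult, against 13.5 and 97.0 CPM in the other *Pdgfra*+ cells, a ratio of 21.7 (20.3 to 23.1) and 3.76 (3.68 to 3.85). *C3* was lower in the same cells, at 345 and 288 CPM against 1460 and 1738 CPM in the others. *Hc* was detected in 47.2% and 57.9% of thinned *Crabp1*+ cells (72.7% and 85.3% unthinned) and *C3* in 23.6% and 15.7% (34.6% and 26.9%). *Crabp1*+ cells held 28.3% of all *Hc* UMIs at puberty and 36.2% in the adult, with 1.79% and 13.1% of all UMIs.

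Besides *C3*, the members *C4b* (ratios of 0.237 and 0.222), *Cfb* (0.229 and 0.167), *C2* (0.295 and 0.368), *C7* (0.278 and 0.0902) and *Serping1* (0.367 and 0.509) were lower in *Crabp1*+ cells in both libraries. That made 6 of 9 members lower, against 8.93% of 8448 genes, and 1 higher, against 9.15%. *C1ra* (0.520 and 0.754) and *C1s1* (0.640 and 0.737) were lower by the fold at puberty and not in the adult. *C7* in adult *Crabp1*+ cells was detected in 0.302% of thinned cells (1.31% unthinned), beside 0.298% of mural-like cells, and its level there was 2.83 CPM (2.29 to 3.48) beside 0.395 CPM.

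The separation of *C3* and *Hc* also held cell by cell. Of thinned cells with an *Hc* UMI, 18.3% had a *C3* UMI at puberty and 13.4% in the adult, against 82.5% and 70.2% of cells without *Hc*. Pearson's r of their log-scaled counts over all *Pdgfra*+ cells was -0.34 over 18878 pubertal and -0.60 over 20999 adult cells. *C3* and *C4b* had an r of 0.47 and 0.53, *C4b* and *Cfb* 0.38 and 0.49, and *C3* and *Cfb* 0.30 and 0.49. These values are descriptions, since the cells of a library share animals, depth and free RNA.

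**Figure D4:**
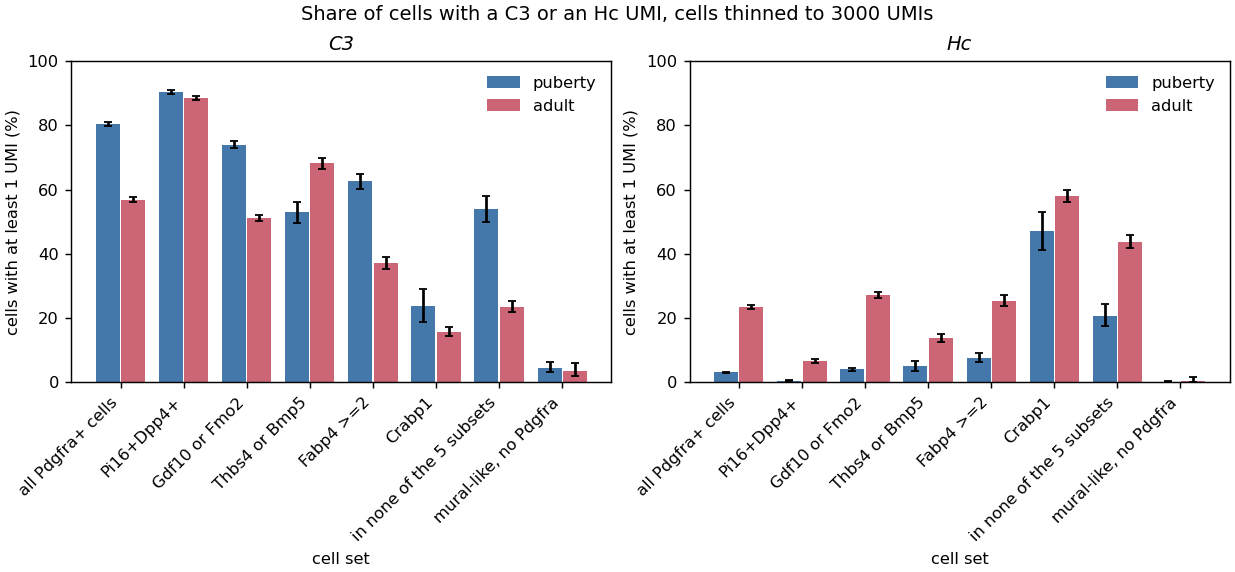
Share of cells with at least 1 UMI of C3 (left) or Hc (right), in percent, after thinning to 3000 UMIs, for all Pdgfra+ cells, the 5 subsets, cells in none of them and mural-like cells without Pdgfra, with exact 95% intervals and 1 bar per library. C3 is highest in Pi16+Dpp4+ cells (90.4% and 88.4%) and Hc in Crabp1+ cells (47.2% and 57.9%).

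The remaining subsets had fewer members past the fold. In cells with at least 2 *Fabp4* UMIs, *C3* (0.583 and 0.312) and *C7* (0.594 and 0.251) were lower than in other cells in both libraries, which made 2 of 9 against 5.12% of 8187 genes, and none was higher, against 3.70%. *C1s1* was at 501 and 616 CPM in these cells, an adult level that did not differ from that of *Gdf10*+ or *Fmo2*+ cells (612 CPM) beyond counting intervals. Of the 5 subsets it was lowest in *Crabp1*+ cells, at 252 and 417 CPM. The mural marker sum was 574 and 253 CPM in the *Fabp4* subset, with *Myh11* highest, and 433 and 147 CPM in the *Thbs4*+ or *Bmp5*+ subset, above the 157 and 107 CPM of all fibroblasts, and its part in these ratios was not tested. In *Thbs4*+ or *Bmp5*+ cells *C4b* was lower in both libraries (0.542 and 0.651), 1 of 9 against 2.37% of 8156 genes, and none was higher, against 3.09%. With *Crabp1*+ cells and those with at least 2 *Fabp4* UMIs left out, the adult *C4b* ratio was 0.681 and missed the threshold. *Hc* was above the other cells there at puberty (1.94) and below them in the adult (0.636). The pubertal ratio was 0.847 when *Crabp1*+ cells and those with at least 2 *Fabp4* UMIs were left out of the subset. It stayed above 1 in cells of this gate alone (2.18), without the likely doublets (2.09), with 1 UMI more per gate gene (1.56) and with gates on thinned cells (1.30).

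Between the stages, subsets differed in which members were higher in the adult. In *Pi16*+*Dpp4*+ cells 4 of 9 members were at least 1.5-fold higher, against 9.46% of 8463 genes, and none was lower, against 3.86%. *Hc* went from 3.54 to 36.2 CPM, a ratio of 10.2, and *C3* (1.54), *C2* (1.53, from 39.9 to 61.0 CPM) and *C1s1* (1.52, from 344 to 522 CPM) lay just above the threshold. Under TMM scaling of this subset, *Hc* alone remained past it. The pubertal *Hc* level in this subset was low, with 0.556% of thinned cells positive (0.439% to 0.695%, and 1.59% unthinned). That interval holds the 0.534% that 0 of 689 mural-like cells allows, which is an upper limit. The summed level of 3.54 CPM (3.27 to 3.82) lay above the 0.777 CPM that mural-like cells allow at puberty. The size of the *Hc* ratio thus rests on a low pubertal value.

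In *Gdf10*+ or *Fmo2*+ cells *Hc* was 6.93 times as high in the adult (22.2 and 154 CPM), the 1 member past the fold, against 10.7% of 8665 genes, and none was lower, against 5.72%. *C4b* (0.742), *Cfb* (0.741), *C2* (0.817) and *Serping1* (0.835, from 1923 to 1605 CPM) had lower adult values there that did not reach the threshold. In *Thbs4*+ or *Bmp5*+ cells *C3* was 1.77 times as high in the adult (844 and 1498 CPM) and *Hc* 2.59 times (34.4 and 89.1 CPM), 2 of 9 members against 6.21% of 8637 genes, with none lower against 5.43%. In the cells that passed no other gate the *Hc* ratio was 1.48, just short of the threshold.

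Cells with at least 2 *Fabp4* UMIs had the reverse for *C3*, which was at 879 CPM at puberty and 539 in the adult (0.612, 0.601 to 0.624). *Cfb* (0.627, from 54.0 to 33.9 CPM) and *C7* (0.655, from 11.9 to 7.83 CPM) were lower as well, 3 of 9 members against 5.36% of 8580 genes. With at least 3 *Fabp4* UMIs the ratios of *Cfb* (0.686) and *C7* (0.730) missed the threshold. *Hc* was higher at 3.08-fold (40.1 and 124 CPM), 1 of 9 against 8.12%.

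In *Crabp1*+ cells *Hc* differed least between stages of the 5 subsets, with a ratio of 1.24 (1.17 to 1.32). *C1ra* (146 and 263 CPM, 1.81) and *C1s1* (252 and 417 CPM, 1.66) were higher in the adult, 2 of 9 against 8.27% of 8793 genes. *Cfb* (17.7 and 11.2 CPM, 0.630) and *C7* (5.43 and 2.83 CPM) were lower, 2 of 9 against 6.45%, but *C7* was below the minimum of 10 CPM in both libraries and is not among the 8793 genes. Neither direction held, since with 1 UMI more required of *Crabp1* the ratios were 1.21 for *Cfb* and 3.36 for *C7*. The *Crabp1*+ values at puberty rest on 289 cells, of which 100 passed no other gate. In those 100 the *C3* ratio was 2.75, against 0.836 in the whole subset, and without the likely doublets it was 0.487, so no direction is given for *C3* in *Crabp1*+ cells.

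**Figure D5:**
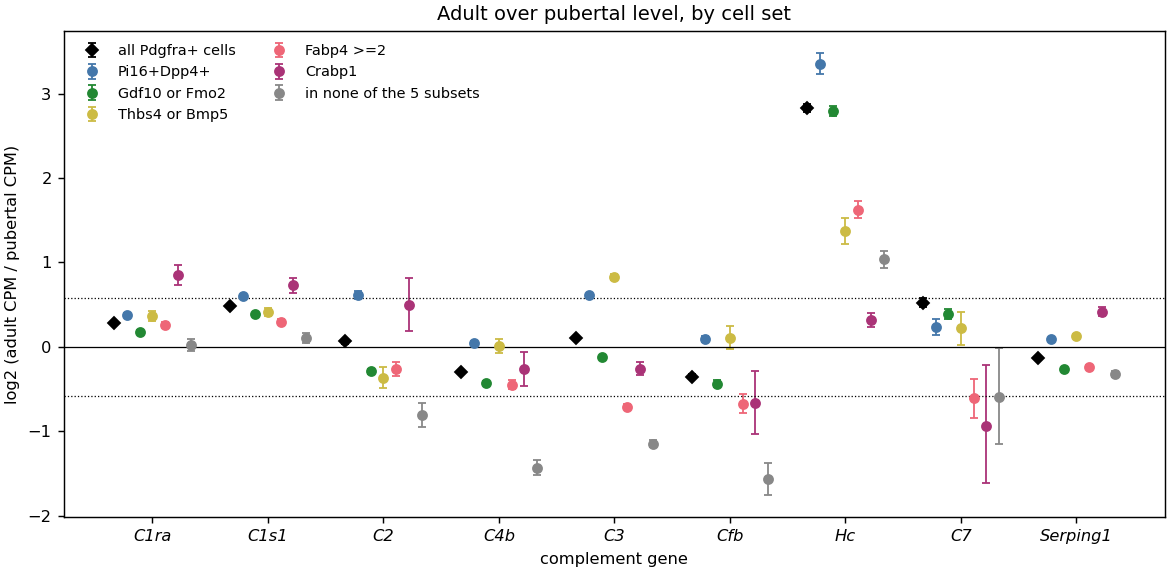
Log2 ratio of adult to pubertal CPM for each gene over all Pdgfra+ cells, the 5 subsets and the cells in none, with 95% counting intervals, a solid line at no difference and dotted lines at 1.5-fold. Hc lies above 0 in every set, while C3 is above the upper line in Pi16+Dpp4+ and in Thbs4 or Bmp5 cells and below the lower one in Fabp4 cells and in cells of no subset.

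Cells that passed none of the gates, 3.74% of pubertal and 11.9% of adult fibroblasts, had the lowest adult over pubertal ratios of *C3* (0.452, from 1210 to 547 CPM), *C4b* (0.371, from 279 to 104 CPM), *Cfb* (0.338) and *C2* (0.572) when set beside the 5 subsets. *Hc* in them was at 139 and 285 CPM, second to the *Crabp1*+ cells. Their median depth was below that of the 5 subsets in both libraries. Their epithelial marker sum was 29.8 CPM at puberty and 0.343 in the adult, and their glial sum 88.2 and 26.7 CPM. Interferon-induced genes summed to 2972 and 1098 CPM. Mural (99.3 and 56.3 CPM) and endothelial (23.4 and 12.5 CPM) sums were below those of all fibroblasts. The part of this make-up in the ratios was not tested.

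*Hc* was higher in the adult in each of the 5 subsets, by 1.24 to 10.2 times, but in the *Crabp1*+ cells of no other gate its ratio was 0.963, and the subsets with much *Hc* were larger in the adult library. When both stages were given the same mix of subset combinations, the adult over pubertal ratio of *Hc* was 2.27 (42.9 and 97.2 CPM), compared with 7.13 as measured. For *Cfb* and *C4b* the same weighting gave 0.949 and 0.908, nearer to 1 than the measured 0.783 and 0.812, and for *C7* 1.16 in place of 1.44. The *C1ra* ratio was 1.22 either way. The part of the subset mix in these ratios was not tested, as most gates rest on 1 UMI and each stage has 1 library.

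For each gene, the most similar patterns over *Pdgfra*+ cells were ranked by the lower r of the 2 libraries among 7823 genes. *C3* was most like *Opcml* (r of 0.52 and 0.69), *Ly6c1* (0.51 and 0.77) and *Ly6a* (0.48 and 0.74). *Hc* was most like *Hmcn1*, which encodes the matrix protein hemicentin (0.73 and 0.68), then *Gramd1b* (0.54 and 0.55) and the calcium channel gene *Cacna1c* (0.51 and 0.59). *C2* was nearest to *Gdf10* (0.51 and 0.42), itself a gate gene, to *Clec11a* (0.49 and 0.40) and to *F3*, which encodes tissue factor (0.53 and 0.39). *F3* was also near *C7* (0.28 and 0.42), beside *Gas6* (0.30 and 0.39) and *Cygb* (0.27 and 0.29). Members were nearest to members in several cases: *C4b* to *C3* and *Cfb*, *Cfb* to *C4b*, *C3* and *Serping1* (0.29 and 0.37), and *C1ra* to *Serping1* (0.35 and 0.40) and *C1s1* (0.33 and 0.37). The actin-severing protein gene *Gsn* was in the lists of *C1ra* (0.33 and 0.33), *C1s1* (0.35 and 0.42) and *Serping1* (0.56 and 0.66), the last of which also had *Selenop* (0.43 and 0.45) and *Plac9* (0.43 and 0.51). *Igfbp3* was the third gene for *C4b* (0.37 and 0.38) and *C4b* the third for *C1s1* (0.30 and 0.30).

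Most other genes of the cascade were sparse in these cells, although 5 of the 8 membrane regulators listed reached 10 CPM in a library. Of 47 other complement genes listed, all were in the table, 30 stayed under 1 CPM in both libraries and 4 (*Mbl1*, *Fcnb*, *C8a* and *Itgax*) had no UMI. *C1qa*, *C1qb* and *C1qc*, the recognition subunits that pair with C1r and C1s, reached at most 0.105 CPM. Of the terminal genes, *C6* was at 0.896 and 1.01 CPM and *C9* at 1.08 and 0.420 CPM. Factor D, which cuts factor B, is encoded by *Cfd* and was at 0.634 and 0.699 CPM. None of the 8 receptor genes reached 1 CPM. Of the 47 genes, 9 reached 10 CPM in a library, and 3 of these were at least 1.5-fold higher and 3 lower in the adult, with the other 3 in between. Among all 8645 genes with at least 10 CPM in a library, 12.0% were that much higher and 5.09% that much lower.

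Values are given for 8 of these 9 genes. *Cd55*, which encodes a membrane-bound inhibitor of convertases, was at 569 CPM at puberty and 360 in the adult (0.634), and its highest level was in *Pi16*+*Dpp4*+ cells (712 and 661 CPM). Its paralog *Cd55b* was at 21.5 and 4.66 CPM (0.216), a value that is uncertain where reads match both copies. The collectin *Colec12* (142 and 305 CPM, 2.15) and *Cd46* (6.73 and 13.5 CPM, 2.01) were higher in the adult, and *Clu*, which encodes the terminal-pathway inhibitor clusterin, lower (18.6 and 11.0 CPM, 0.590). *Vtn* (21.8 and 29.4 CPM, 1.34), *Cr1l* (85.1 and 89.4 CPM, 1.05) and *Csmd1* (64.0 and 61.3 CPM, 0.957) lay between the thresholds. TMM scaling left the 5 of them that were past the fold there, at 1.95 for *Colec12*, 1.82 for *Cd46*, 0.574 for *Cd55*, 0.535 for *Clu* and 0.196 for *Cd55b*.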

How the data were processed

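Single-cell RNA was measured in 2 libraries, 1 pubertal and 1 adult. The authors deposited raw UMI counts per gene and barcode as filtered matrices, made with Cell Ranger 8.0.1 and build mm10 per the submitters' processing notes. The annotation release was not given in the sources used here, and 1735 of 33696 identifiers were absent from GENCODE M21. The study's methods differ from the labels in kit, Cell Ranger version and pubertal age, and the labels were followed. Counts were summed over the cells of a library and divided to CPM, with exact Poisson, conditional binomial and Clopper-Pearson 95% intervals, in Python 3.11.15 with scipy 1.17.1. Doublets were not removed, but an alternative left out the highest Scrublet scores (scanpy 1.11.5, 0.4% per 1000 barcodes), 1715 and 2057 *Pdgfra*+ cells. TMM factors came from edgeR 4.0.16, without its test, since the study's pseudo-bulk test needs replicates. Genes with at least 10 CPM in 1 library were compared. Scripts were tested on simulated data. The members and lists were chosen with earlier results of these data known. The 9 members are named throughout, other complement genes at 10 CPM or more, and the 3 genes most like each member. Some items of the lists are not reported here. A cell was mural-like with at least 3 mural markers and no *Pdgfra* UMI. Genes named below 10 CPM, and the values in cells of no subset, were chosen after their values were seen.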

Additional observations from a re-analysis of the deposited data

Results flagged for a closer look

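*C3* had adult over pubertal ratios in opposite directions in 2 of the fibroblast subsets, which drew attention to it. In *Thbs4*+ or *Bmp5*+ cells the ratio was 1.77 and in cells with at least 2 *Fabp4* UMIs it was 0.612. Each stage had 1 library, so the difference between the subsets was not tested. In cells that passed 1 of these gates alone the ratios were 3.60 and 0.534, and with 1 UMI more required per gate gene they were 2.91 and 0.620. Without the likely doublets they were 1.89 and 0.501. The mural marker sum went from 433 to 147 CPM in the first subset and from 574 to 253 CPM in the second, and its part was not tested.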

How the results depend on the processing

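No paired analysis was possible because each stage has 1 library. Over all *Pdgfra*+ cells 1 of 9 members (*Hc*) was past 1.5-fold under 10 of 11 alternatives, and the mean of each cell's CPM gave 2 (*Hc* and *C7*). Of the 10, the setting with no CPM minimum changed the background share alone and could not move a member. *Hc* kept a log2 value between 1.18 (same mix) and 3.05. That of *C3* ranged from -0.18, without cells holding 2 UMIs of other types' markers, to 0.50 with the same mix. That filter removed 51.7% of pubertal and 34.9% of adult fibroblasts. Mural, glial and endothelial markers, such as *Abcc9*, *Mbp* and *Pecam1*, were counted in fibroblasts. Within subsets 15 of 45 comparisons were past the fold, and 12 to 21 under the alternatives. In *Crabp1*+ cells 1 UMI more per gate gene turned *Cfb* to a log2 of 0.27 and *C7* to 1.75, and *Crabp1*+ cells of no other gate gave no value for either. Against other cells 16 comparisons were past the fold, and 16 to 24 under the alternatives. Thinned detection called 1 member, and 2 without thinning (*Hc*, *Cfb*) or with at least 2 UMIs (*Hc*, *C7*). The cause of these moves was not tested. With no CPM minimum 25.8% of genes were higher and 18.4% lower. TMM by subset, gates without *Crabp1*+ or *Fabp4* cells, and removal of the shared barcodes were chosen after seeing the data.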

Other observations

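*C1s1* and *Serping1* were counted outside fibroblasts as well. In mural-like cells without *Pdgfra*, *C1s1* was at 258 CPM at puberty and 332 in the adult, 65.9% and 60.7% of the level in fibroblasts, and *Serping1* at 572 and 652 CPM, 33.7% and 42.1%. *C3* in the same cells was at 3.34% and 3.06% of the fibroblast level. Cells with at least 3 muscle markers (49 and 123 cells) had *Serping1* at 600 and 517 CPM but 1 and 7 UMIs of *C1s1* in total. Cells with at least 3 glial markers (61 and 59) had *C4b* at 84.1 and 44.5 CPM from 20 and 25 UMIs. *C1s1* was detected in 53.6% of thinned mural-like cells (49.8% to 57.3%) and in 0 of 38 glial-like cells at puberty, which allows up to 9.25%. The shares of these genes thus differed between cell types of 1 library beyond counting error.

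Among the interferon-induced genes, the correlation with *C4b* over fibroblasts was 0.31 at puberty and 0.26 in the adult for *Iigp1*, and 0.27 in both libraries for *Ifit1*. With *Hc* it was -0.04 and -0.14 for *Iigp1*. *Ifit1* correlated with *C3* at 0.11 and 0.22. The summed level of the 9 interferon-induced genes was 3796 and 2042 CPM in cells with at least 2 *Fabp4* UMIs, and 758 and 572 CPM in *Crabp1*+ cells.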
